A study of Mus musculus with 4 samples.

Results

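Semaphorins, plexins and neuropilins form the ligand and receptor families described here in the mouse heart at embryonic day E10.5. The set holds 8 genes of the 32285 listed in each count matrix. They were chosen by symbol: the secreted class 3 ligands Sema3a, Sema3c, Sema3d and Sema3f, the plexin receptors Plxna2, Plxna4 and Plxnd1, and the coreceptor Nrp2. All 8 were found in each of the 4 libraries. Single-cell RNA sequencing with a droplet method that reads the 3′ ends of transcripts was performed on hearts of C57BL/6J embryos. The wild-type group (Wt) and the group homozygous for the Cyp51 allele I383V (Ho) each had 2 libraries. Cyp51 encodes a demethylase of cholesterol synthesis, and the allele was introduced by CRISPR/Cas9 in the germline. The labels give CRISPR/Cas9 as the treatment of all 4 libraries, Wt included. The sources used here do not say how many embryos went into a library, so the spread between libraries may be partly technical. The 3′ counts do not read the altered codon and give no check of the genotype labels.

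Class 3 semaphorins are secreted guidance proteins. Most bind a neuropilin, which lacks signalling activity of its own, and the neuropilin pairs with a plexin that carries the signal into the cell and alters the cytoskeleton and adhesion. Sema3c acts in the septation of the cardiac outflow tract, and Plxnd1 is the plexin of endothelial cells, where it takes part in vessel patterning.

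Cells were sorted into 10 gates by 1 or 2 marker genes each. Cardiomyocytes, defined by troponin T (Tnnt2), were split by the ventricular gene Myl2, the atrial gene Stard10 and the sinus venosus gene Shox2, and the Tnnt2 alone gate took those positive for none of the 3. The other gates used Cdh5 for endothelium, Hapln1 for cushion mesenchyme, Stmn4, Crabp1, the epicardial gene Upk3b and the epithelial gene Epcam. Filtering left 8908 and 7154 Wt cells and 6980 and 6126 Ho cells, holding 97179971, 105282895, 113478594 and 98379564 unique molecular identifiers (UMIs). Wherever 4 values follow each other, their order is Wt1, Wt2, Ho1 and Ho2. Of these cells 55.4%, 68.2%, 75.3% and 63.3% fell into a gate. Libraries shared between 14 and 34 cell barcodes in each pair.

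Lists of marker genes, some of which include the gate gene itself, were read in each gate. All 9 endothelial markers were detected in the Cdh5 gate of every library, with Egfl7 the most abundant, and all 6 epicardial markers in the Upk3b gate, led by Tcf21. The Upk3b gate also carried the 9 cardiomyocyte markers, which summed to 3697, 2811, 5086 and 3834 CPM (UMIs scaled to a common library total) and were mostly Myl7. Their sum was 434 to 920 CPM in the Cdh5 gate and at least 52726 CPM in every library of the Tnnt2 gates. The 8 cushion markers, with Hapln1 itself among them, summed to between 2787 and 2939 CPM in the Hapln1 gate. Hapln1 had a mean of 913 CPM there and 202 CPM in the Stmn4 gate. Twist1, Vcan, Cthrc1 and Msx1 also had higher means in the Hapln1 gate than in the Stmn4 gate, and Sox9, Postn and Tbx20 had lower ones. In the Stmn4 gate the cushion markers summed to between 1740 and 2215 CPM, and the neuronal markers to between 247 and 326 CPM. The Stmn4 gate is therefore named by its gene alone. Macrophage markers were near 0, at no more than 4.77 CPM in sum in the Cdh5 gate.

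The 8 genes lie on 4 chromosomes (GRCm38, GENCODE M21 gene spans). Sema3d (chr5:12383385-12588948), Sema3a (chr5:13125414-13602565) and Sema3c (chr5:17574281-17730268) follow each other on the plus strand of chromosome 5, and Sema3f lies at chr9:107681500-107710475 on the minus strand. Plxna4 (chr6:32144268-32588192) and Plxnd1 (chr6:115954811-115995005) are on the minus strand, and Nrp2 (chr1:62703285-62818695) and Plxna2 (chr1:194618218-194816869) on the plus strand.

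The Ho1 library stood apart from the other 3. It held no Epcam cells and 17 Crabp1 cells, under the minimum of 20, so it gave no value in those gates. It carried 28877 UMIs of Xist, against 5, 4 and 2 in Wt1, Wt2 and Ho2, and 0 UMIs of 4 Y-linked genes, which had 8808, 9910 and 9657 UMIs in the others. Globin and other red cell transcripts summed to 752 CPM in its Tnnt2 Shox2 gate and to at most 7.55 CPM in that gate of the other libraries. By the Xist and Y-linked counts Ho1 was female and Wt1, Wt2 and Ho2 were male. Sex thus differed within the Ho group and was partly mixed with genotype, and only fits without Ho1 compare libraries of the same sex. The part of sex in the Ho to Wt values was not tested.

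**Figure D1:**
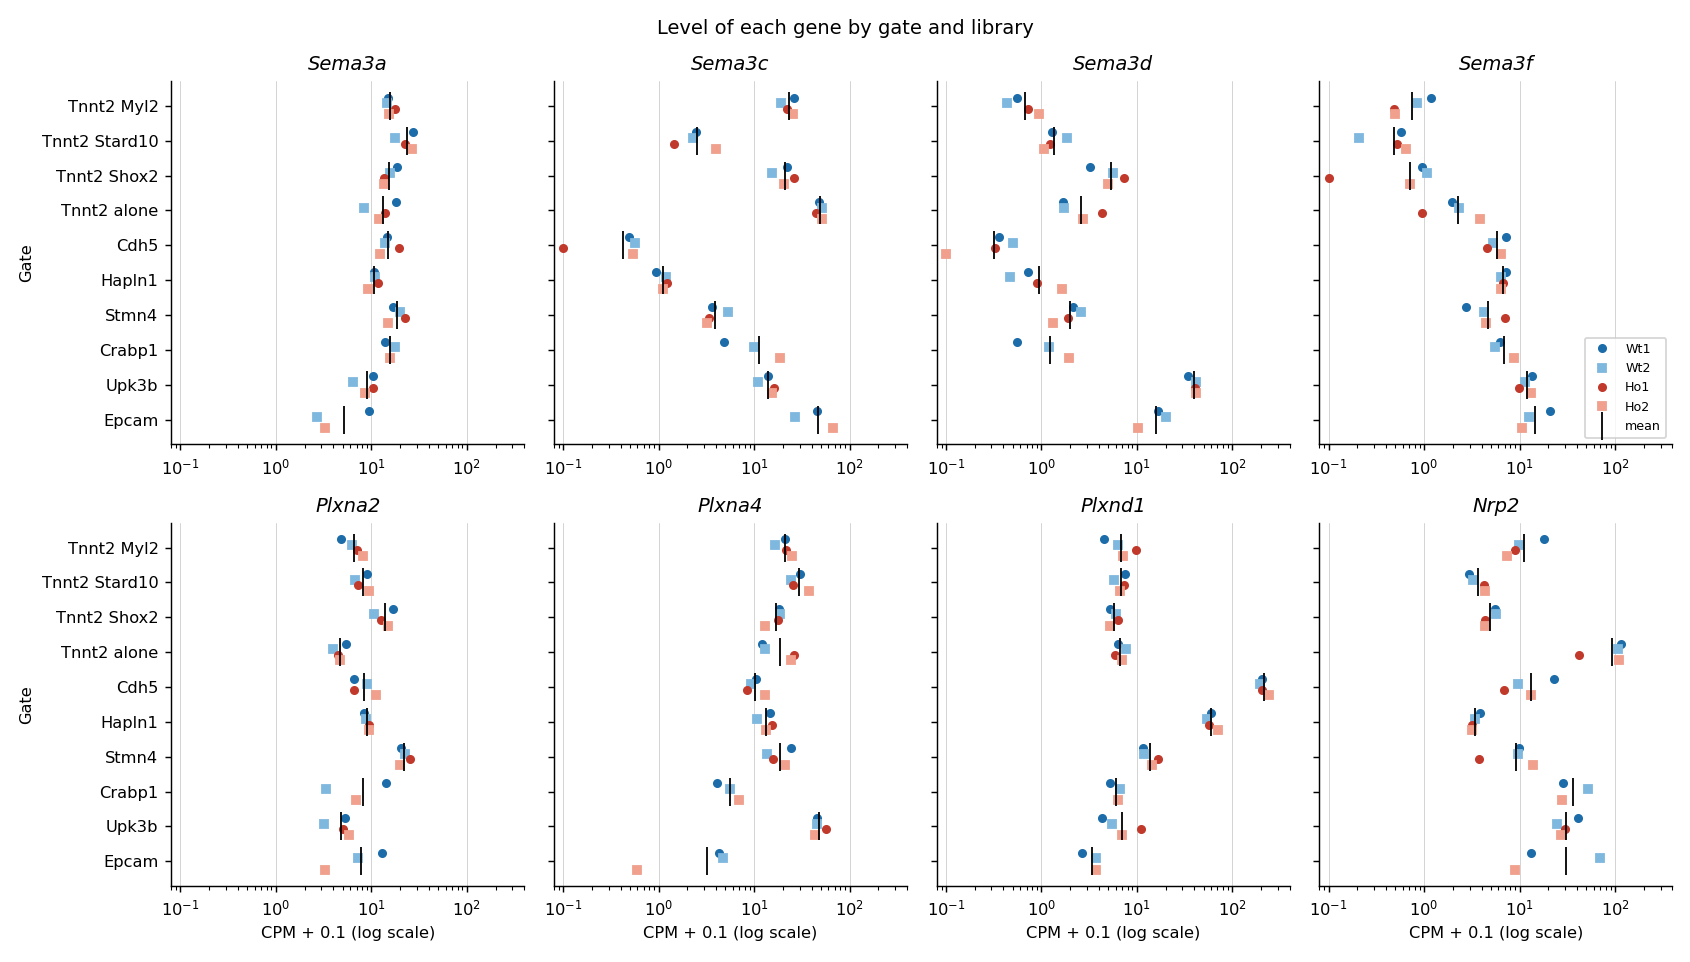
Level of each gene in the 10 gates, as TMM-normalized CPM plus 0.1 on a log axis; circles and squares are replicates 1 and 2, blue is Wt, red is Ho, and the bar is the mean over libraries. Plxnd1 is set apart in the Cdh5 gate at 196 to 245 CPM and Sema3d in the Upk3b gate at 34.6 to 42.1 CPM, while Sema3a spans little of the axis.

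The ligands differed in how narrowly they were expressed. Levels below are CPM normalized across gates, and each gate was tested against the mean of the other gates with edgeR, the library as a block. Since the values count transcripts from their 3′ ends and were not set per length, levels are compared between gates and not between genes.

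Sema3c was highest in the Tnnt2 alone gate, at 48.1 and 51.5 CPM in the Wt and 44.5 and 51.6 CPM in the Ho libraries, a mean of 48.9 ± 3.36 (SD, n = 4). The Epcam gate came next at 46.0, 26.8 and 66.5 CPM in Wt1, Wt2 and Ho2, and its range overlapped that of Tnnt2 alone. Both gates were above the Tnnt2 Myl2 gate in every library, which reached 25.9 CPM. The gene was nearly absent from endothelium. In the Cdh5 gate 3, 7, 0 and 3 UMIs were counted, and the 0 in Ho1 allows up to 0.224 CPM (3 counts, counting error only). The mean level in the highest gate was 150 times that in Cdh5. Against the other gates the log2 fold change was 3.07 (SE 0.14) in Tnnt2 alone, 3.00 (SE 0.18) in Epcam and -4.95 (SE 0.35) in Cdh5, with edgeR adjusted p of 2.11e-19, 2.85e-16 and 1.37e-14.

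Among cardiomyocytes Sema3c was low only in the atrial gate. Tnnt2 Stard10 gave 2.37, 2.20, 1.35 and 3.85 CPM, below every library of the other Tnnt2 gates. Its log2 fold change there was -1.78 (edgeR adjusted p = 5.94e-07). When cells could enter several gates at once, the value became 0.15 (edgeR adjusted p = 0.470), so the call depends on gates that share no cell. That setting opened every gate, so the gates compared against changed too. The part of cells also positive for Myl2 or Shox2 was not tested.

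Sema3d, a ligand known from epicardium and venous development, was highest in the Upk3b gate. It stood at 34.6, 41.2, 40.9 and 42.1 CPM in Wt1, Wt2, Ho1 and Ho2 (39.7 ± 3.43, SD, n = 4). No library of another gate reached these values. Epcam followed at 16.8, 20.1 and 10.3 CPM in Wt1, Wt2 and Ho2, and Tnnt2 Shox2 at 3.16, 5.54, 7.32 and 4.95 CPM in the 4 libraries, both without overlap with the next gate up. The log2 fold changes were 4.67 (SE 0.16, edgeR adjusted p = 3.22e-23) in Upk3b, 3.22 in Epcam (edgeR adjusted p = 3.23e-14) and 1.43 in Tnnt2 Shox2 (edgeR adjusted p = 2.42e-06). In the Tnnt2 Shox2 gate the 6 epicardial markers summed to 99.3, 111, 131 and 157 CPM, most of it Tcf21, against 1906 to 2284 CPM in the Upk3b gate, and their part in the Sema3d value was not tested. Of the 7 epithelial markers, Krt8 and Krt18 had means of 263 and 538 CPM in the Upk3b gate. Epcam had a mean of 1.81 CPM there, and Cldn7, Cldn6, Cdh1 and Foxa2 had means of 0.315, 0, 0 and 0.0623 CPM. The part of epithelial cells in the Sema3d value was not tested.

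The RefSeq promoter of Sema3d is shown with that of Plxnd1 because these genes had the 2 largest positive fold changes of the set, in gates that do not share cells. RefSeq (GRCm38.p6) promoters were found for 6 of the 8 genes. Each line holds the 250 bases before the RefSeq start, on the strand of the gene. Capitals mark matches, sought on both strands, to the GATA core AGATAA and its variant TGATAA, to the ETS core AGGAAG and its variant CGGAAG, and to the GLI core ACCACCCA. The GATA forms overlap in GATAA and the ETS forms in GGAAG. The Sema3d window is chr5:12382916-12383165 on the plus strand and that of Plxnd1 is chr6:115995006-115995255 on the minus strand.
Sema3d: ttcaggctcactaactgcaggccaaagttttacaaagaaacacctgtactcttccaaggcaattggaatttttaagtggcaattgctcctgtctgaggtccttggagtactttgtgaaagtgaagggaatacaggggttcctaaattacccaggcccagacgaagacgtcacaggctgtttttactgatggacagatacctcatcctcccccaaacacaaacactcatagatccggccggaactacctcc
Plxnd1: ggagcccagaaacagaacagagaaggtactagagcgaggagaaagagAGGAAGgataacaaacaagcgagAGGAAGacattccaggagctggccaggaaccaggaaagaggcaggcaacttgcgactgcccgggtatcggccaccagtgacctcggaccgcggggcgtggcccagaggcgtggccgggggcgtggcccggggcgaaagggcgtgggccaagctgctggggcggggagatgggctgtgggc
The Plxnd1 window held AGGAAG at 2 places, 203 to 198 and 180 to 175 bases before the start, and the Sema3d window held none of these letters. Of 32851 windows of the same length, 39.2% held an ETS core, 16.6% a GATA core and 1.28% the GLI core, so the Plxnd1 matches are of a common kind. These matches describe letters and not binding sites.

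Sema3f, a ligand that binds Nrp2 with high affinity, had its highest levels in the epithelial and epicardial gates. The Epcam gate gave 20.8, 12.4 and 10.52 CPM in Wt1, Wt2 and Ho2, and the Upk3b gate 13.3, 11.2, 9.85 and 12.95 CPM in the 4 libraries. These ranges overlapped each other. 3 of the 4 muscle gates were called lower, Tnnt2 Myl2, Tnnt2 Stard10 and Tnnt2 Shox2. In Tnnt2 Myl2 the level was 1.07, 0.739, 0.389 and 0.392 CPM, and in Tnnt2 Stard10 it was 1 to 4 UMIs per library. Tnnt2 alone, at 1.89, 2.25, 0.850 and 3.71 CPM, did not pass the test (log2 fold change -0.45, edgeR adjusted p = 0.199). Fitted log2 fold changes were 2.49 (SE 0.22) in Epcam, 2.23 (SE 0.21) in Upk3b and -3.24 (SE 0.38) in Tnnt2 Stard10, with edgeR adjusted p of 7.21e-12, 5.46e-11 and 3.13e-09.

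Sema3a, a repulsive cue for axons and a patterning cue for cardiac nerves, was the most evenly expressed ligand. Its highest gate, Tnnt2 Stard10, gave 27.0, 17.7, 22.3 and 26.8 CPM (23.4 ± 4.42, SD, n = 4), and its lowest, Epcam, 9.34, 2.58 and 3.18 CPM in Wt1, Wt2 and Ho2. The ratio of these means was 4.66. Every neighbouring pair of gates in the order of levels overlapped. Tnnt2 Stard10 was called higher at a log2 fold change of 0.91 (SE 0.12, edgeR adjusted p = 2.65e-08) and Stmn4 at 0.59 (SE 0.15, edgeR adjusted p = 0.00148). The Stmn4 call was lost with doubled gate levels (0.40, edgeR adjusted p = 0.137).

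Among the receptors, Plxnd1 had the sharpest pattern. In the Cdh5 gate it gave 207, 196, 203 and 245 CPM in Wt1, Wt2, Ho1 and Ho2 (213 ± 22.0, SD, n = 4), from 1573 to 2913 UMIs per library. The Hapln1 gate followed at 59.3, 54.5, 56.7 and 70.6 CPM and the Stmn4 gate at 11.4, 11.9, 16.4 and 14.3 CPM. These 3 gates did not overlap with each other or with the 7 gates below them, which lay between 2.55 and 11.0 CPM in single libraries. The log2 fold change was 4.69 (SE 0.06, edgeR adjusted p = 1.27e-35) in Cdh5 and 2.66 (SE 0.07, edgeR adjusted p = 6.86e-26) in Hapln1. Plxnd1 was called lower in the other gates except Stmn4, where the value was 0.26 (edgeR adjusted p = 0.141).

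Endothelial transcripts were also present in the Hapln1 gate, where Plxnd1 was next highest after Cdh5. The 9 endothelial markers, all detected, summed there to 632, 631, 632 and 758 CPM in Wt1, Wt2, Ho1 and Ho2, led by Egfl7, against 2368, 2353, 2175 and 2577 CPM in the Cdh5 gate. In the Stmn4 gate they summed to between 120 and 139 CPM. Their part in the Hapln1 value was not tested. Within the Cdh5 gate Plxnd1 was as high in cells with a UMI of the endocardial gene Nfatc1 (201, 207, 202 and 246 CPM of all UMIs) as in cells without one (215, 194, 182 and 249 CPM). This split was chosen after the levels were seen and has no test. Cells in no gate also carried the gene, at 37.8, 78.0, 90.4 and 59.8 CPM of all UMIs.

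Plxna4, a receptor for Sema3a in axons, was highest in the Upk3b gate, at 45.0, 45.8, 56.8 and 43.8 CPM (47.9 ± 6.02, SD, n = 4). Tnnt2 Stard10 followed at 29.9, 24.5, 25.5 and 37.1 CPM, below every Upk3b library. Upk3b and Tnnt2 Stard10 were both called, at a log2 fold change of 1.97 (SE 0.15, edgeR adjusted p = 2.82e-13) and 1.16 (SE 0.14, edgeR adjusted p = 6.39e-09). From the second to the eighth gate neighbouring ranges overlapped. Tnnt2 alone was called higher at 0.52 (edgeR adjusted p = 0.00844). That call was lost with halved gate levels (0.35, edgeR adjusted p = 0.0963). It was also lost without Ho1 (0.32, edgeR adjusted p = 0.184) and without Ho2 (0.34, edgeR adjusted p = 0.0799). In the Upk3b gate Ho1 was highest for Plxna4 and also for the summed cardiomyocyte markers, whose part in this level was not tested. Levels were lowest in the Crabp1 and Epcam gates, where single libraries lay between 0.489 and 6.80 CPM.

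Plxna2, a plexin of neural crest cells that takes part in outflow tract septation, had its peak in the Stmn4 gate. It was at 20.5, 22.2, 25.1 and 19.8 CPM there (21.9 ± 2.37, SD, n = 4), above every library of the other gates. Tnnt2 Shox2 came second at 16.9, 10.6, 12.4 and 14.7 CPM, above the whole Hapln1 range of 8.23 to 9.34 CPM, but Wt1 also reached 14.1 CPM in the Crabp1 gate and 12.7 CPM in the Epcam gate. The log2 fold changes were 1.54 (SE 0.18, edgeR adjusted p = 5.48e-09) in Stmn4 and 0.74 (SE 0.17, edgeR adjusted p = 4.78e-04) in Tnnt2 Shox2. Between the highest and the lowest gate mean the ratio was 4.81.

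Nrp2 was highest in the Tnnt2 alone gate, with 1 library apart. Wt1, Wt2 and Ho2 gave 115, 108 and 109 CPM and Ho1 gave 41.6 CPM, a mean of 93.3 ± 34.6 (SD, n = 4). Crabp1 followed at 28.1, 52.0 and 27.8 CPM in Wt1, Wt2 and Ho2, Epcam at 12.9, 70.1 and 8.80 CPM in the same libraries, and Upk3b at 41.2, 24.5, 29.5 and 26.9 CPM in all 4. Ranges of these 4 gates overlapped along the order. The other cardiomyocyte gates were lower, Tnnt2 Stard10 reaching at most 4.26 CPM and Tnnt2 Myl2 17.9 CPM. The log2 fold change in Tnnt2 alone was 3.14 (SE 0.20, edgeR adjusted p = 1.86e-15), and 3.36 without Ho1. In Epcam it was 0.86 (edgeR adjusted p = 0.0382), and without Wt2 it was -0.36 (edgeR adjusted p = 0.387), so that call rested on 1 library.

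The Tnnt2 alone gate may pool muscle of more than 1 region. It was divided, after the levels were seen, into cells with at least 2 UMIs of the outflow genes Isl1 and Bmp4 and more of these than of the canal genes Bmp2, Tbx2 and Rspo3, cells with the reverse, and cells with neither. Isl1 and Bmp4 were not confined to this gate, with means of 92.0 and 209 CPM in Tnnt2 Shox2 beside 119 and 267 CPM in Tnnt2 alone. Isl1 is also on the list of sinus venosus markers. The names outflow-gene and canal-gene cells therefore give the genes used and do not establish a region. The neither cells were shallow, with a median of 1812, 1510, 2276 and 2073 UMIs, against at least 11318 in the other cells.

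**Figure D2:**
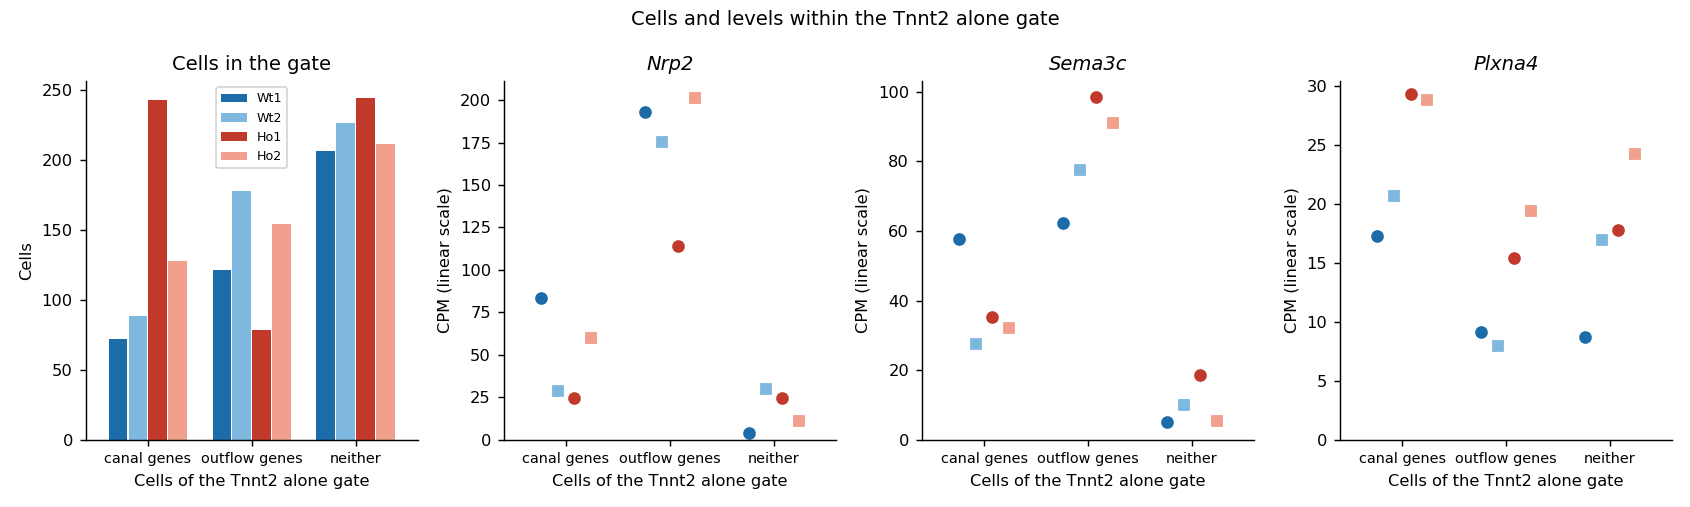
Cells of the Tnnt2 alone gate by their canal and outflow genes; the left panel gives the number of cells and the others CPM of all UMIs on linear axes, each point a library, with colours as in the legend. Nrp2 is highest in the outflow-gene cells of every library, and Ho1 holds 78 of these cells and 243 canal-gene cells.

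Nrp2 was concentrated in the outflow-gene cells, at 193, 175, 114 and 201 CPM of all UMIs. The canal-gene cells gave 83.5, 28.9, 24.6 and 60.1 CPM. Every library was thus higher in outflow-gene than in canal-gene cells. In the cells with neither Nrp2 was at 3.73, 29.6, 24.5 and 10.8 CPM, from 3, 21, 33 and 12 UMIs. Outflow-gene cells numbered 121, 178, 78 and 154, canal-gene cells 72, 88, 243 and 128, and cells with neither 206, 226, 244 and 211, the most numerous kind in every library. Ho1 had the fewest of the former and the most of the latter, its Isl1 level in the whole gate was 52.7 CPM against 134, 162 and 125 CPM in Wt1, Wt2 and Ho2, and the part of this makeup in its Nrp2 level was not tested. Ho1 also remained lowest for Nrp2 within the outflow-gene cells. Sema3c gave 62.4, 77.5, 98.4 and 91.0 CPM in outflow-gene cells and 57.6, 27.5, 35.4 and 32.2 CPM in canal-gene cells. Plxna4 had the opposite order, with 9.11, 7.94, 15.4 and 19.4 CPM in outflow-gene cells and 17.3, 20.6, 29.4 and 28.8 CPM in canal-gene cells.

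Counted over all 80 pairs of a gene and a gate, 29 were called higher than the other gates, 31 lower and 20 neither at an adjusted p under 0.05. Of these, 25 higher and 24 lower calls held whichever 1 library was left out. These calls are read against the background, since gates differ in many genes. In the Cdh5 gate 2 members were higher and 3 lower, where 33.5% and 31.2% of the 13753 genes tested were. For Hapln1 the counts were 2 higher and 4 lower, beside 31.5% and 26.9% of all genes. Stmn4 had 3 higher and 1 lower (25.4% and 25.5% of all genes).

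The muscle gates had members called in both directions. Tnnt2 Myl2 gave 3 higher and 4 lower, against 34% and 31.3% of all genes. The counts in Tnnt2 Stard10 were 2 and 5 (32% and 28.8%). Tnnt2 Shox2 had 3 in each direction, beside 30.1% and 25.3%. The Tnnt2 alone gate had 3 higher and 2 lower (32.6% and 23.5%).

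Members called higher were most numerous in the Upk3b and Epcam gates. Upk3b had 5 of 8 higher and 3 lower, with 26.1% and 23.7% of all genes called so. Epcam had 4 higher and 3 lower (28% and 26.4%). Crabp1 had 2 higher and 3 lower (26% and 23.7%). The median log2 fold change of the 8 genes was 1.19 in Upk3b, where that of all genes was -0.040, and between -0.86 and 0.35 in the other gates, where those of all genes lay between -0.042 and 0.045.

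**Figure D3:**
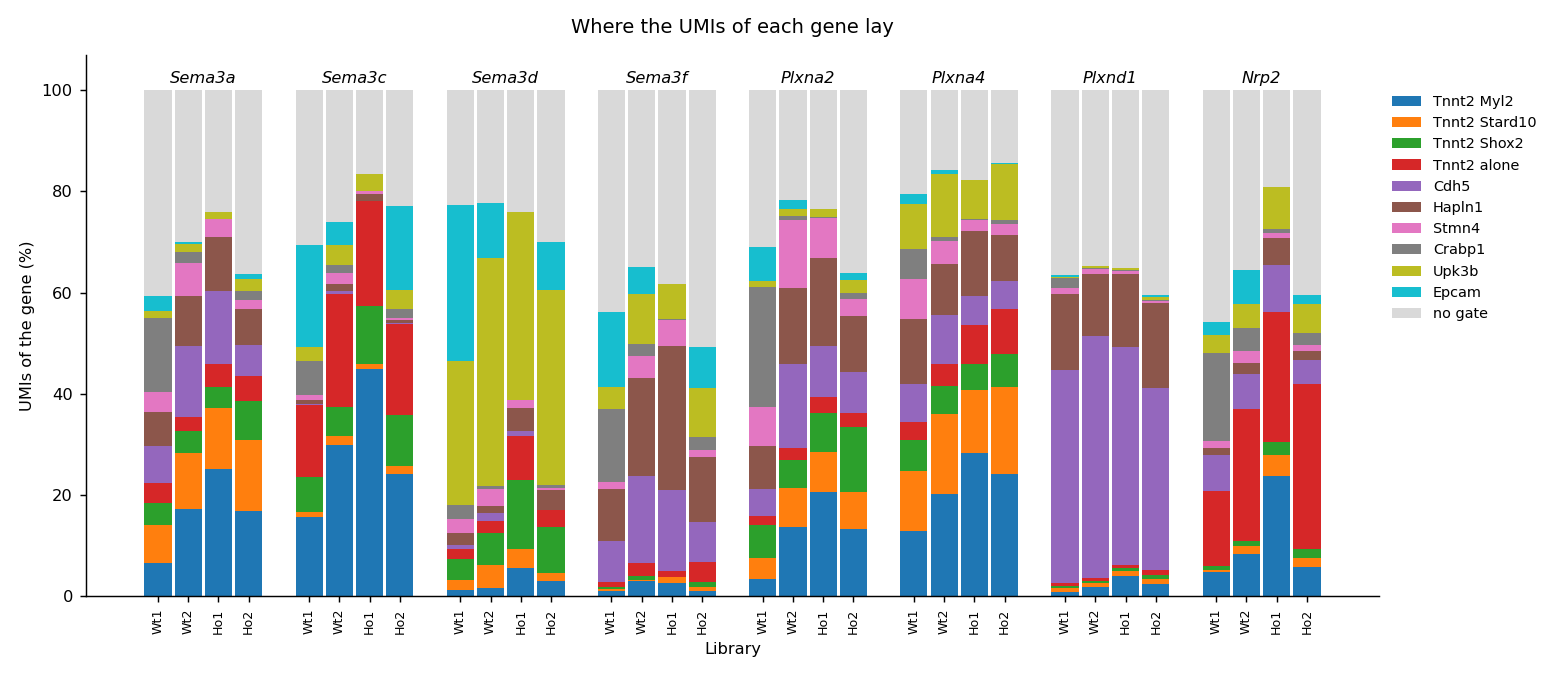
Percent of each gene's UMIs that lay in cells of each gate, 1 stacked bar per library; grey is cells in no gate. Plxnd1 has 36.1% to 47.8% of its UMIs in the Cdh5 gate and Sema3d 28.5% to 45.0% in the Upk3b gate, and the Crabp1 share of each of the 8 genes is largest in Wt1.

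The shares of UMIs add how many cells each gate held. Sema3d had 28.5%, 45.0%, 37.1% and 38.4% of its UMIs in the Upk3b gate of Wt1, Wt2, Ho1 and Ho2, although that gate held 123, 178, 119 and 184 cells. Sema3c had 15.6%, 29.8%, 44.8% and 24.1% of its UMIs in Tnnt2 Myl2, in the same order of libraries, and 14.1%, 22.4%, 20.8% and 17.9% in Tnnt2 alone. Its Epcam shares were 20.1% in Wt1, where no other gate held more, 4.63% in Wt2 and 16.7% in Ho2, and Ho1 had no Epcam cells. Cells in no gate carried 14.4% to 50.8% of a gene's UMIs, the most for Sema3f in Ho2.

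Of 16 other semaphorins 13 passed the count filter of the gate fit. They were called higher most often in the Epcam gate, 11 higher and 2 lower beside 28% and 26.4% of all genes, and then in Hapln1, 7 higher and 3 lower beside 31.5% and 26.9%. Sema3e, the ligand that binds Plxnd1 directly, was low throughout and highest in Upk3b, at 3.32, 1.79, 2.65 and 1.99 CPM (log2 fold change 4.70, edgeR adjusted p = 1.01e-10). It was at most 1.17 CPM in the mean of any other gate. Sema3g, a ligand of endothelium, was highest in Cdh5 at 9.49, 6.79, 3.88 and 11.0 CPM (log2 fold change 4.10, edgeR adjusted p = 9.77e-17). The transmembrane Sema5b in Epcam had a log2 fold change of 3.87 (edgeR adjusted p = 1.21e-10), with Wt2 at 14.4 CPM and the others at 2.76 and 6.60 CPM. Sema6b in Hapln1 had one of 2.88 (edgeR adjusted p = 1.70e-09), although its mean of 1.78 CPM was equalled in Cdh5, at 1.79 CPM.

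Of 7 other receptors 6 passed the count filter. Nrp1, the coreceptor of Sema3a and of VEGF, was at 92.9, 97.4, 82.1 and 106 CPM in Cdh5 (log2 fold change 1.50, edgeR adjusted p = 9.51e-18), and its mean of 89.9 CPM in Upk3b was nearly as high. Plxnc1 was highest in Cdh5 at a mean of 26.1 CPM, with 21.9 CPM in Hapln1 (log2 fold change in Cdh5 4.08, edgeR adjusted p = 3.66e-24). Plxnb2 led in Upk3b at 80.5 ± 7.24 CPM (SD, n = 4), where 4 of the 6 receptors were called higher and 0 lower, against 26.1% and 23.7% of all genes. Plxnb1 led in Epcam at 29.9 ± 7.10 CPM (SD, n = 3).

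All 29 signalling genes downstream of or beside these receptors were tested. In the Stmn4 gate 15 were higher and 3 lower, against 25.4% and 25.5% of all genes, led by the adhesion molecule L1cam at 29.6, 19.3, 32.4 and 24.8 CPM, which was at most 3.34 CPM in the mean of another gate (log2 fold change 6.15, edgeR adjusted p = 1.60e-22). Crmp1, a collapsin response mediator, was also highest there at 60.5 ± 11.4 CPM (SD, n = 4). In Hapln1 16 were higher and 4 lower (31.5% and 26.9% of all genes), and in Tnnt2 Stard10 5 were higher and 16 lower (32% and 28.8%). Kdr and Flt4, the VEGF receptors that pair with neuropilins, were highest in Cdh5, Kdr at 194 ± 24.7 CPM and Flt4 at 15.9 ± 2.38 CPM (SD, n = 4).

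Likeness was read as Pearson's r of log2(CPM + 1) over the 38 sums of a gate and a library, which share libraries and depth, among 7729 genes with a mean of at least 10 CPM. Plxnd1 was most like Gimap6 (r = 0.978), Cd93 (0.968) and Egfl7 (0.965). Sema3d was most like Ctsf (0.909), Sdc4 (0.883) and Krt7 (0.881), and Sema3c most like Bnip3l (0.889), Ccl27a (0.877) and Sorl1 (0.823). Nrp2 came closest to Dlk1 (0.809), Hip1 (0.807) and Mme (0.781). For Plxna4 the first was Ugp2 (0.892), for Sema3f Ube2e3 (0.898), for Sema3a Dynlrb1 (0.770) and for Plxna2 Fam53c (0.666). Within the set, Sema3c and Plxnd1 ran most against each other (r = -0.79), and Sema3c and Nrp2 had the highest r, 0.53.

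The comparison of Ho with Wt asked whether the Cyp51 allele moved these genes in any kind of cell. It could be tested in the 8 gates with at least 20 cells in every library. The Crabp1 and Epcam gates, where Ho2 was the only Ho library with a value, were not compared between genotypes. CPM in these comparisons were normalized within the gate, with n = 2 per genotype, and an exact permutation test of 2 against 2 libraries cannot give a p below 0.333.

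No member was called between genotypes. Of 64 pairs of a gene and a gate 56 passed the count filter, and 0 were called by edgeR and 0 by DESeq2. The background was as sparse, with 0.0844% of genes called in Tnnt2 Myl2, 0.11% in Tnnt2 Stard10, 0.0267% in Tnnt2 Shox2, 0% in Tnnt2 alone, 0.00815% in Cdh5, 0.0319% in Hapln1, 0% in Stmn4 and 0.0388% in Upk3b. In the 2 gates at 0%, DESeq2 called 9 genes in Tnnt2 alone and 1 in Stmn4, and 1143 and 568 genes had an unadjusted p under 0.05 in edgeR. Against that background a count of 0 among 56 pairs says nothing particular about the members. An unadjusted p under 0.05 in edgeR was found for 6 of the 56 pairs, where 3.91% to 9.86% of all genes had one per gate. The estimate was higher in Ho for 37 pairs and lower for 19. The pairs not tested were Sema3d in 5 gates, Sema3f in Tnnt2 Stard10 and Tnnt2 Shox2, and Sema3c in Cdh5, where their counts were too low.

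**Figure D4:**
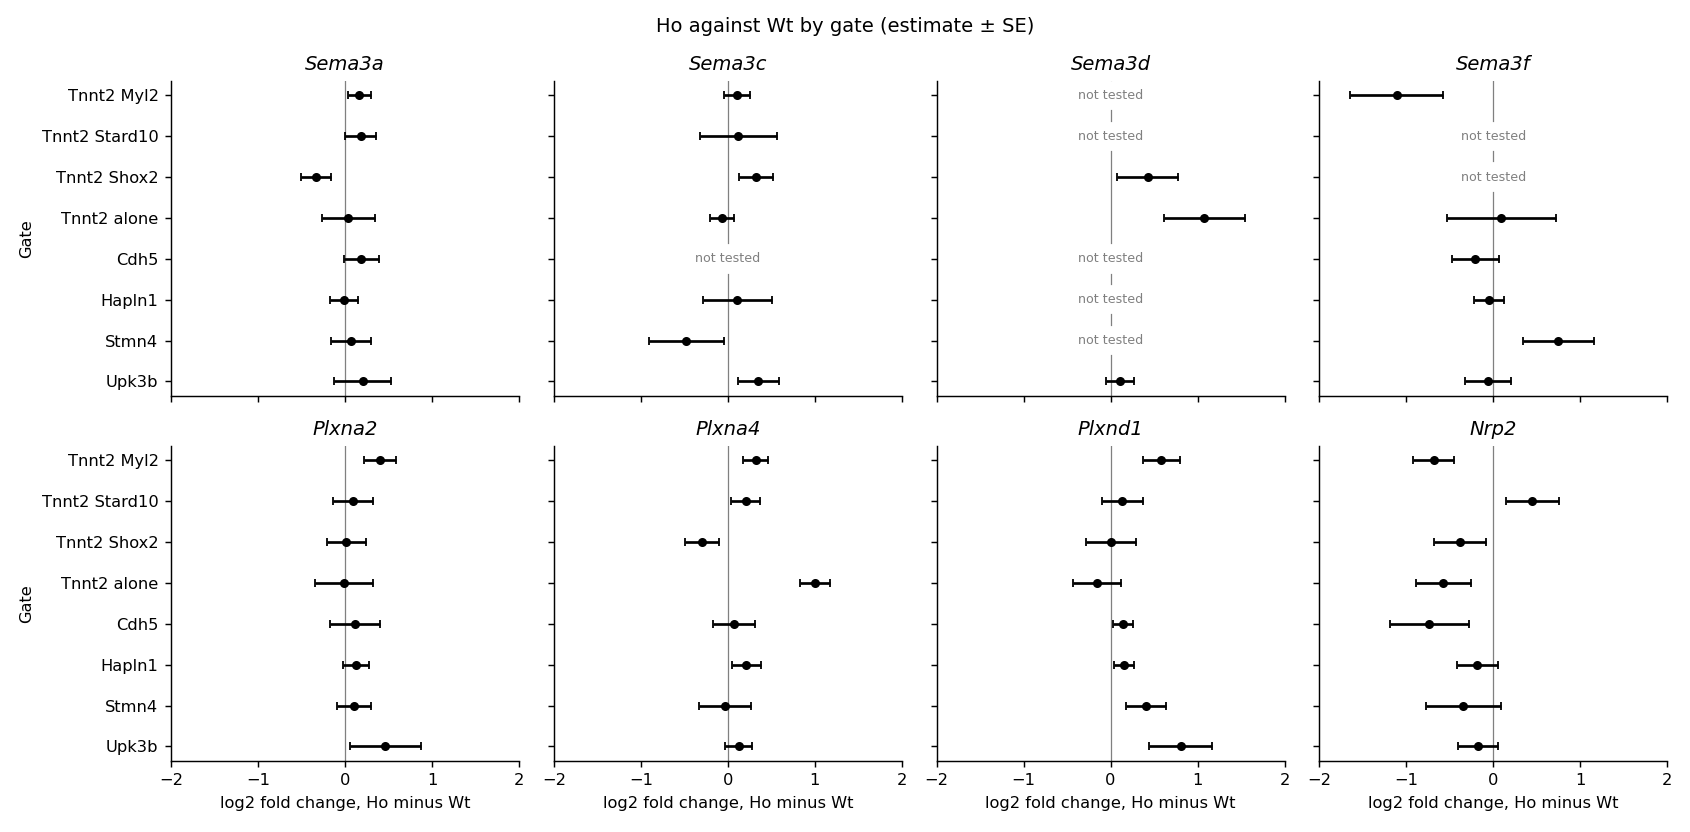
Log2 fold change of Ho minus Wt for each gene in the 8 gates tested, with 2 libraries per genotype. Point and bar are the edgeR estimate and an SE derived from its F statistic. The estimate farthest from 0 in units of its SE is Plxna4 in Tnnt2 alone, at 1.00 with an SE of 0.17, and most others lie within 0.5 of 0.

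Plxna4 in Tnnt2 alone was the pair nearest to a call. Wt1 and Wt2 gave 11.8 and 12.7 CPM and Ho1 and Ho2 gave 25.3 and 24.003 CPM, without overlap. The log2 fold change was 1.00 (SE 0.17, unadjusted p = 1.38e-04, edgeR adjusted p = 0.196). Leaving out Ho1 or Ho2 brought the edgeR adjusted p to 0.0124 or 9.70e-04 at a log2 fold change of 0.96 or 1.05, and leaving out Wt1 or Wt2 kept it at 0.478 or 0.312. The share of all genes called in this gate rose as well, from 0% to 0.706% without Ho1 and 5.54% without Ho2. Its adjusted p over all alternatives ran from 1.11e-04 to 0.478. With the gate levels doubled the log2 fold change was 0.60. In the split chosen after the levels were seen, Plxna4 rested on 13, 21, 16 and 45 UMIs in the outflow-gene cells. In the canal-gene cells it rested on 18, 30, 112 and 67 UMIs. Both Ho libraries were above both Wt libraries in either kind of cell, in the CPM given above. Ho1 and Ho2 also held more canal-gene cells than Wt1 and Wt2, and the part of this makeup in the Plxna4 value was not tested. In Tnnt2 Myl2 the gene gave 18.1, 13.9, 18.1 and 21.0 CPM (log2 fold change 0.32, SE 0.14, edgeR adjusted p = 0.554), and in Tnnt2 Shox2 18.1, 18.5, 17.7 and 12.6 CPM (-0.30, SE 0.19, edgeR adjusted p = 0.894).

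Nrp2 had a negative estimate in 7 of the 8 gates and a call in none. In Tnnt2 Myl2 it was at 15.4 and 8.21 CPM in Wt1 and Wt2 and at 7.51 and 6.13 CPM in Ho1 and Ho2. The log2 fold change was -0.68 (SE 0.24, edgeR adjusted p = 0.434). It was -1.15 (edgeR adjusted p = 0.00127) when Wt2 was left out, which makes Wt1 the only Wt library and assumes that it varies as the others do, in a fit that called 0.465% of all genes against 0.0844% with all libraries. Without Wt1, the higher of the Wt libraries, it was -0.26 (edgeR adjusted p = 0.841). In Tnnt2 alone the value was -0.57 (SE 0.31, edgeR adjusted p = 0.590), and it rested on Ho1. It was -0.035 without Ho1 and -1.42 without Ho2 (edgeR adjusted p = 1.34e-07), where 5.54% of all genes were called. Tnnt2 Stard10 was the exception in direction, with 2.51 and 2.79 CPM in Wt and 3.63 and 3.73 CPM in Ho (0.45, SE 0.31, edgeR adjusted p = 0.999).

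Plxnd1 did not differ detectably where it was most abundant. In Cdh5 it gave 209 and 195 CPM in Wt and 201 and 247 CPM in Ho, a log2 fold change of 0.15 (SE 0.12, edgeR adjusted p = 1.00). At low levels, Tnnt2 Myl2 gave 3.82 and 5.27 CPM in Wt and 8.17 and 5.91 CPM in Ho (0.59, SE 0.21, edgeR adjusted p = 0.449), and Upk3b gave 4.32 and 5.38 CPM in Wt and 10.99 and 6.999 CPM in Ho (0.81, SE 0.36, edgeR adjusted p = 0.963). In these 2 pairs the groups did not overlap, but neither was called. Ho1 was the highest library in both, and without it the estimates were 0.31 (edgeR adjusted p = 0.651) in Tnnt2 Myl2 and 0.49 (edgeR adjusted p = 0.883) in Upk3b. The cardiomyocyte markers of the Upk3b gate were also highest in Ho1, and their part in the Plxnd1 value there was not tested.

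Sema3d in its own gate, Upk3b, was at 35.0 and 41.3 CPM in Wt and 40.9 and 42.2 CPM in Ho (log2 fold change 0.11, SE 0.16, edgeR adjusted p = 0.975). In Tnnt2 alone, at 5, 8, 25 and 15 UMIs, the value was 1.08 (SE 0.46, edgeR adjusted p = 0.484), and 0.70 (edgeR adjusted p = 0.814) without Ho1, the highest library. Sema3c in Tnnt2 alone was at 47.5 and 50.8 CPM in Wt and 43.6 and 50.4 CPM in Ho (-0.068, SE 0.14, edgeR adjusted p = 0.910). The remaining genes, Sema3a, Sema3f and Plxna2, had edgeR adjusted p of at least 0.574 in every gate tested.

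Summed over all kept cells, 0 of 8 members and 0% of 16978 genes were called by edgeR (786 genes at an unadjusted p under 0.05, and 22 called by DESeq2). In such sums fewer cells of a type and less RNA per cell cannot be told apart. Plxna4 gave 10.9 and 13.1 CPM in Wt and 17.98 and 15.8 CPM in Ho (log2 fold change 0.49, SE 0.14, edgeR adjusted p = 0.803). Nrp2 gave 25.4, 18.7, 8.83 and 19.0 CPM in Wt1, Wt2, Ho1 and Ho2, with Ho1 again the lowest. Its log2 fold change over all cells was -0.22 (edgeR adjusted p = 1.00) without Ho1 and -1.32 (edgeR adjusted p = 0.673) without Ho2. Over all Tnnt2 cells 0 of 8 members and 0% of 14648 genes were called by edgeR (973 at an unadjusted p under 0.05, and 24 called by DESeq2). Plxna4 stood at 19.0, 16.7, 20.7 and 21.9 CPM. Nrp2 stood at 25.6, 18.2, 9.84 and 18.7 CPM there (log2 fold change -0.61, SE 0.27, edgeR adjusted p = 0.750), a value that became -0.21 (edgeR adjusted p = 0.540) without Ho1 and -1.13 (edgeR adjusted p = 2.11e-11) without Ho2, in fits that called 2.26% and 3% of all genes. With no filter on low counts it was -0.60 and was called (edgeR adjusted p = 2.11e-05), as were 1.06% of all genes.

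Whether the genotype effect differed between gates was tested directly by the interaction of gate and genotype over 8 gates. None of the 8 members was called by edgeR or DESeq2, and 0% of 13743 genes were called by edgeR, with 862 genes at an unadjusted p under 0.05 and 11 called by DESeq2. Plxna4 and Sema3d had unadjusted p of 0.0466 and 0.0495, both with an edgeR adjusted p of 0.788. The other 6 had unadjusted p of at least 0.240.

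The genes of the 3 other lists were tested between genotypes in the same 8 gates where their counts allowed. These were 4 to 11 of the 16 other semaphorins per gate, 5 to 7 of the 7 other receptors and 21 to 27 of the 29 signalling genes. Of 295 pairs of a gene and a gate 0 were called by edgeR and 0 by DESeq2, where 0% to 0.11% of all genes were called per gate by edgeR. An unadjusted p under 0.05 in edgeR was found for 28 pairs, 9.49%, against 3.91% to 9.86% of all genes per gate. Some calls appeared when 1 library was left out. Without Ho1 they were Kdr in Hapln1, Nrp1 in Tnnt2 Shox2 and Rnd2 in Tnnt2 Myl2. Without Ho2 they were Kdr in Tnnt2 Myl2, Dpysl2 and Sema6a in Hapln1, and Dpysl2 and Dpysl3 in Tnnt2 alone. The edgeR adjusted p of these 8 pairs lay between 8.87e-04 and 0.0457. More of all genes were called in these fits too, 1.79% in Hapln1, 2.17% in Tnnt2 Shox2 and 1.14% in Tnnt2 Myl2 without Ho1, and 0.573% in Tnnt2 Myl2, 1.27% in Hapln1 and 5.54% in Tnnt2 alone without Ho2. Kdr in Tnnt2 Myl2 was also called with no filter on low counts (edgeR adjusted p = 7.51e-04, 0.853% of all genes called).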

How the data were processed

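Hearts were digested, red blood cells were lysed and 3′ libraries were made. The authors deposited 1 matrix of raw UMI counts per library, and the submitters' processing notes name Cell Ranger 6.1.1, Seurat 4.1.0 and the mm10/GRCm38 build. UMIs are molecules, and the 0 floors of 3 counts cover counting error only. Kept cells had no more than 20% mitochondrial UMIs, between 500 and 50000 UMIs in all and between 500 and 6000 detected genes, and the cells with the highest Scrublet scores (scanpy 1.11.5) were removed as doublets, 0.8% per 1000 cells. A cell was positive for a gate gene at 2 or more UMIs and at a set level per 10000 UMIs (10 for Tnnt2 and Myl2, 5 for Hapln1 and Crabp1, 2 for Cdh5, Stmn4, Upk3b and Epcam, 1 for Stard10 and Shox2). Gates shared no cell. A library entered a gate with at least 20 cells. UMIs were summed per library and gate and tested with edgeR 4.0.16 in R 4.3.3 (quasi-likelihood test, TMM scaling, its count filter, Benjamini-Hochberg adjustment over all genes tested, calls at 0.05). The library was a block between gates, and no block was used between genotypes. Each SE is the absolute log2 fold change divided by the square root of the quasi-likelihood F. That F draws on dispersion estimated across genes, so the SE is not the plain spread of the libraries. The scripts were tested on simulated data. Alternatives included DESeq2 1.42.0, other filters and gates, and each library left out.

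The named genes were the 8 members and, from each list of other semaphorins, receptors and signalling genes, the 4 with the largest positive fold change of a gate over the others, any gene called between genotypes, and the 3 genes most like each member. Members, gates and lists were chosen with earlier results of these data known. Cell types were read from markers, not from an annotation of the authors, so shares may differ from theirs. Library depth is given with the cells in the results.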

Additional observations from a re-analysis of the deposited data

How the results depend on the processing

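Counts of members called between genotypes were 0 in the fits reported and under DESeq2, RLE scaling, a filter of at least 10 counts in every library, a mitochondrial limit of 10%, doublets kept, no upper limits on cells, and halved, doubled or overlapping gates. They were 3 pairs with no filter on low counts (Nrp2 in Tnnt2 Myl2 and Tnnt2 alone, Plxna4 in Tnnt2 alone), where 0.853% and 1.64% of all genes were called in these gates, and 0 to 2 with 1 library left out, where the remaining library of a genotype was assumed to vary like the others. The interaction of gate and genotype had 0 members called except 1, Plxna4, with no filter (2.15% of all genes), and 0 with any 1 library left out. Pairs called higher between gates numbered 29, from 27 to 31 under the other alternatives and with 1 library left out, and 4 with at least 10 counts in every library, where fewer genes could be tested.

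Replicate numbers did not pair the libraries, the correlation of deviations between same-numbered libraries being -0.454 over all cells and -0.088 to 0.054 within gates. With the replicate number as a block 1 pair was called between genotypes (Plxna4 in Tnnt2 alone, log2 fold change 1.00, edgeR adjusted p = 0.0174), with 140 genes called in that gate in place of 0, and the interaction called 0 members. The crossed replicate block, chosen after seeing the data, called 2 pairs (Nrp2 in Tnnt2 Myl2, Plxna4 in Tnnt2 alone, with 1.21% and 0.863% of all genes called) and also Nrp2 over all Tnnt2 cells (0.505%) and Kdr in Tnnt2 Myl2.

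Of 222 values of the Ho to Wt fold changes followed, 202 kept direction and side of the threshold, 10 gained a call and 10 changed sign, none of them called. The latter were Sema3f in Upk3b (0.26 with halved gate levels, 0.0097 with doubled levels, 0.067 with overlapping gates, -0.30 to 0.10 with 1 library left out, 0.047 without Wt1) and, with 1 library left out, Sema3a in Tnnt2 Stard10 (-0.16 to 0.46), Sema3c in Tnnt2 alone (-0.17 to 0.033), Plxna2 in Stmn4 (-0.099 to 0.23), Plxna4 in Upk3b (-0.057 to 0.31) and Plxnd1 in Cdh5 (-0.0080 to 0.29). The cause was not tested. All 113 values of the highest-gate fold changes kept direction and side of the threshold. Under Spearman's rho the 3 genes most like a member changed for 7 of 8 members, Nrp2 being the exception. Depth limited Sema3c and Sema3d in endothelium, with 13 and 11 UMIs over the 4 libraries.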
